A study of Mus musculus with 28 samples.

Results

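The 10 genes described here encode building blocks of the neuronal cytoskeleton: Tubb3, Dcx, Map2, Mapt, Stmn2, Nefl, Nefm, Nefh, Ina and Gap43. They were chosen by name from the 19421 genes of the deposited table, and all 10 were found. The study asked how the transcription factor Atoh1, which drives the formation of both neurons and sensory hair cells, changes its effect when it is expressed together with Gfi1 and Pou4f3. Mouse embryonic stem cells (the A2loxCre parental line) carried a doxycycline (Dox) inducible cassette for Atoh1 (iAtoh1), Gfi1 (iGfi1), Pou4f3 (iPou4f3), Gfi1 with Pou4f3 (iG+P), Gfi1 with Atoh1 (iG+A), Pou4f3 with Atoh1 (iP+A) or all 3 (iGPA). In each cassette 2A peptides linked the factors to a nuclear mVenus reporter, Atoh1 carried a 3xFlag tag and Pou4f3 a 3xMyc tag. The cells were grown as embryoid bodies (EBs), and the Dox groups received 2 µg/ml Dox from day 4 for 48 h.

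RNA was sequenced at day 6 in 2 libraries per group and 28 in all, and the series record gives the 2 replicates as different clones of a line. The Dox libraries came from sorted mVenus+ cells, whereas the No Dox libraries came from whole, unsorted EBs. The effect of the factors and that of the sort can therefore not be told apart in any Dox against No Dox comparison, and in such bulk samples fewer cells of a type and less RNA per cell cannot be told apart either. Differences between the Dox effects of lines compare sorted with sorted and unsorted with unsorted cells. The values are normalized counts, with a sum of 36.75 M to 40.38 M per library and 17630 to 18070 genes above 0. As a check of the labels, Atoh1 lay between 12816 and 21242 normalized counts in the 8 Dox libraries of lines that carry it and between 14.3 and 32.5 in the other 6. Gfi1 lay between 8119 and 12487 against 49.7 to 113, and Pou4f3 between 4694 and 19883 against 27.7 to 101. Among the lines that carry it, Pou4f3 was lowest in iPou4f3 Dox cells, at 4694 and 5381. It was at 17590 and 19883 in iG+P, 12878 and 10868 in iP+A and 13037 and 15115 in iGPA Dox cells. Transgene and endogenous transcripts of these factors cannot be told apart in the counts.

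Microtubules of neurons are built from alpha- and beta-tubulins and carry proteins that set their stability and spacing. Tubb3 is the beta-tubulin isotype used as a marker of young neurons. Dcx (doublecortin) binds microtubules of migrating neurons, Map2 those of dendrites and Mapt (tau) those of axons, while Stmn2 binds tubulin dimers in growth cones. Nefl, Nefm and Nefh are the light, medium and heavy subunits of neurofilaments, the intermediate filaments that fill axons, and Ina (alpha-internexin) joins them in developing neurons. Gap43 is a membrane protein of growing axon tips. Hair cells, the sensory cells of the inner ear, have no axon, yet are known to share some of these proteins with neurons.

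On the NCBIM37 mouse assembly, Tubb3 lies at chr8:125935324-125945915, Dcx at chrX:140290385-140367854, Map2 at chr1:66221847-66489157, Mapt at chr11:104092704-104193404 and Stmn2 at chr3:8509527-8561604. Nefl lies at chr14:68701920-68707152, Nefm at chr14:68700647-68742903, Nefh at chr11:4838757-4848067, Ina at chr19:47089188-47099817 and Gap43 at chr16:42248555-42340764. Nefl and Nefm lie on opposite strands, and on this build the interval of Nefm spans that of Nefl. In GENCODE M1, 1 Nefm transcript overlaps the start of Nefl by 1108 bases (chr14:68701920-68703027). In RefSeq on GRCm38.p6 the genes lie apart, with a gap of 30449 bases. The authors ran kallisto with default settings, which do not use strand, on UCSC knownGene transcripts, in which an overlap was not checked. Whether their counts share reads is therefore not known.

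The 250 bases before the start site of Tubb3, Dcx, Map2 and Ina are shown because these 4 of the 10 genes matched the RefSeq promoter table. The first 3 of them rose in iP+A cells, and Ina did not pass as a rise in any line. The sequences are from RefSeq on GRCm38.p6, another build than that of the NCBIM37 positions above. They are written in the direction of transcription, with CAGCTG and AATTAAT in capitals.
Tubb3 (chr8:123411303-123411552, plus strand): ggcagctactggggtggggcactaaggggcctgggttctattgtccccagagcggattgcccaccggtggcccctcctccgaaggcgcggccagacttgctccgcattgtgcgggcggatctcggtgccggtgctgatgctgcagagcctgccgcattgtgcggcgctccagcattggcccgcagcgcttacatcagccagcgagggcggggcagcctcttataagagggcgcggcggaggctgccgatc
Dcx (chrX:143933125-143933374, minus strand): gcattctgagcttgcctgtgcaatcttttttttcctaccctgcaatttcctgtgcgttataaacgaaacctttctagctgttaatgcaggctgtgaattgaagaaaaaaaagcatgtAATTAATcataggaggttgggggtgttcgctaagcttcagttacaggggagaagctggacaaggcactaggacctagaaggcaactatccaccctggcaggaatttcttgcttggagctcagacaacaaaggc
Map2 (chr1:66175079-66175328, plus strand): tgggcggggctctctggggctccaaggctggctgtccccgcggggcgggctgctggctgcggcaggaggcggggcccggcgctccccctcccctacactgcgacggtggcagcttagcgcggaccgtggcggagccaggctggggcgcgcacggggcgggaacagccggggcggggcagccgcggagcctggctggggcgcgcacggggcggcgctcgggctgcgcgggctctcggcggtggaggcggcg
Ina (chr19:47014431-47014680, plus strand): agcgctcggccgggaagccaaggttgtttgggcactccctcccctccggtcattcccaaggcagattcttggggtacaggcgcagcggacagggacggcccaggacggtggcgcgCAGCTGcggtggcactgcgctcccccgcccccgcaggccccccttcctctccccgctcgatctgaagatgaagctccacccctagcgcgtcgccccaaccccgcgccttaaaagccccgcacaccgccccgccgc
These windows were searched on both strands, together with the 50 bases after the start. CAGCTG, the core of the Atoh1 site that the study placed in its reporter, was in the window of Ina, 135 bases before the start, and in 18.3% of all 27025 genes with a window. It was also the only match of Ina to the general E-box CANNTG, which 75% of all genes held, and Tubb3, Dcx and Map2 held no E-box in these windows. AATTAAT, the core of a Pou4f site, was in the printed window of Dcx, 133 bases before the start, and in the window of the other Dcx start in the table, 38 bases before it, and was held by 3.03% of all genes. AAATCA, the start of a Gfi1 site, was in 15.9% of all genes and TTCAGCACC, part of the site of the neuronal repressor Rest, in 0.433%, and neither was in these 4 windows. A match to these letters is a description and not a bound site.

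Before Dox, the 10 genes were transcribed at low to moderate levels in all 7 lines. The counts in this paragraph are not corrected for transcript length, so their order is not one of transcript abundance. Gap43 had a median of 636 normalized counts over the 14 No Dox libraries, from 311 to 1057. Mapt followed with a median of 313 (254 to 468), Stmn2 with 208 (48.7 to 547), Ina with 150 (34.4 to 674), Tubb3 with 128 (91.4 to 312) and Map2 with 92.1 (64.9 to 189). The lowest were Nefl at 42.9 (21.6 to 97.7), Nefh at 23.0 (12.2 to 49.8), Dcx at 11.8 (4.51 to 17.4) and Nefm at 10.5 (1.00 to 40.1). Differences among the untreated lines did not pass the test in any of the 10 genes (limma moderated F test, lowest adjusted p = 0.108). Of the 16837 genes tested, 12.1% passed at an adjusted p under 0.05. At an unadjusted p under 0.05, for which no share of all genes is given, there were 4 of the 10. The 2 untreated iP+A libraries stood apart for Ina, at 102 and 674 normalized counts, and for Tubb3, at 132 and 312. Without the first of them, replicate 1, Tubb3 (adjusted p = 0.0416) and Ina (adjusted p = 0.0437) passed the F test. With the replicate block, which takes the difference between the clones of a line out of the error, Stmn2 and Gap43 passed, with 26.7% of all genes. Untreated lines also differ in clone, so this setting cannot show that lines differ by more than their clones do.

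**Figure D1:**
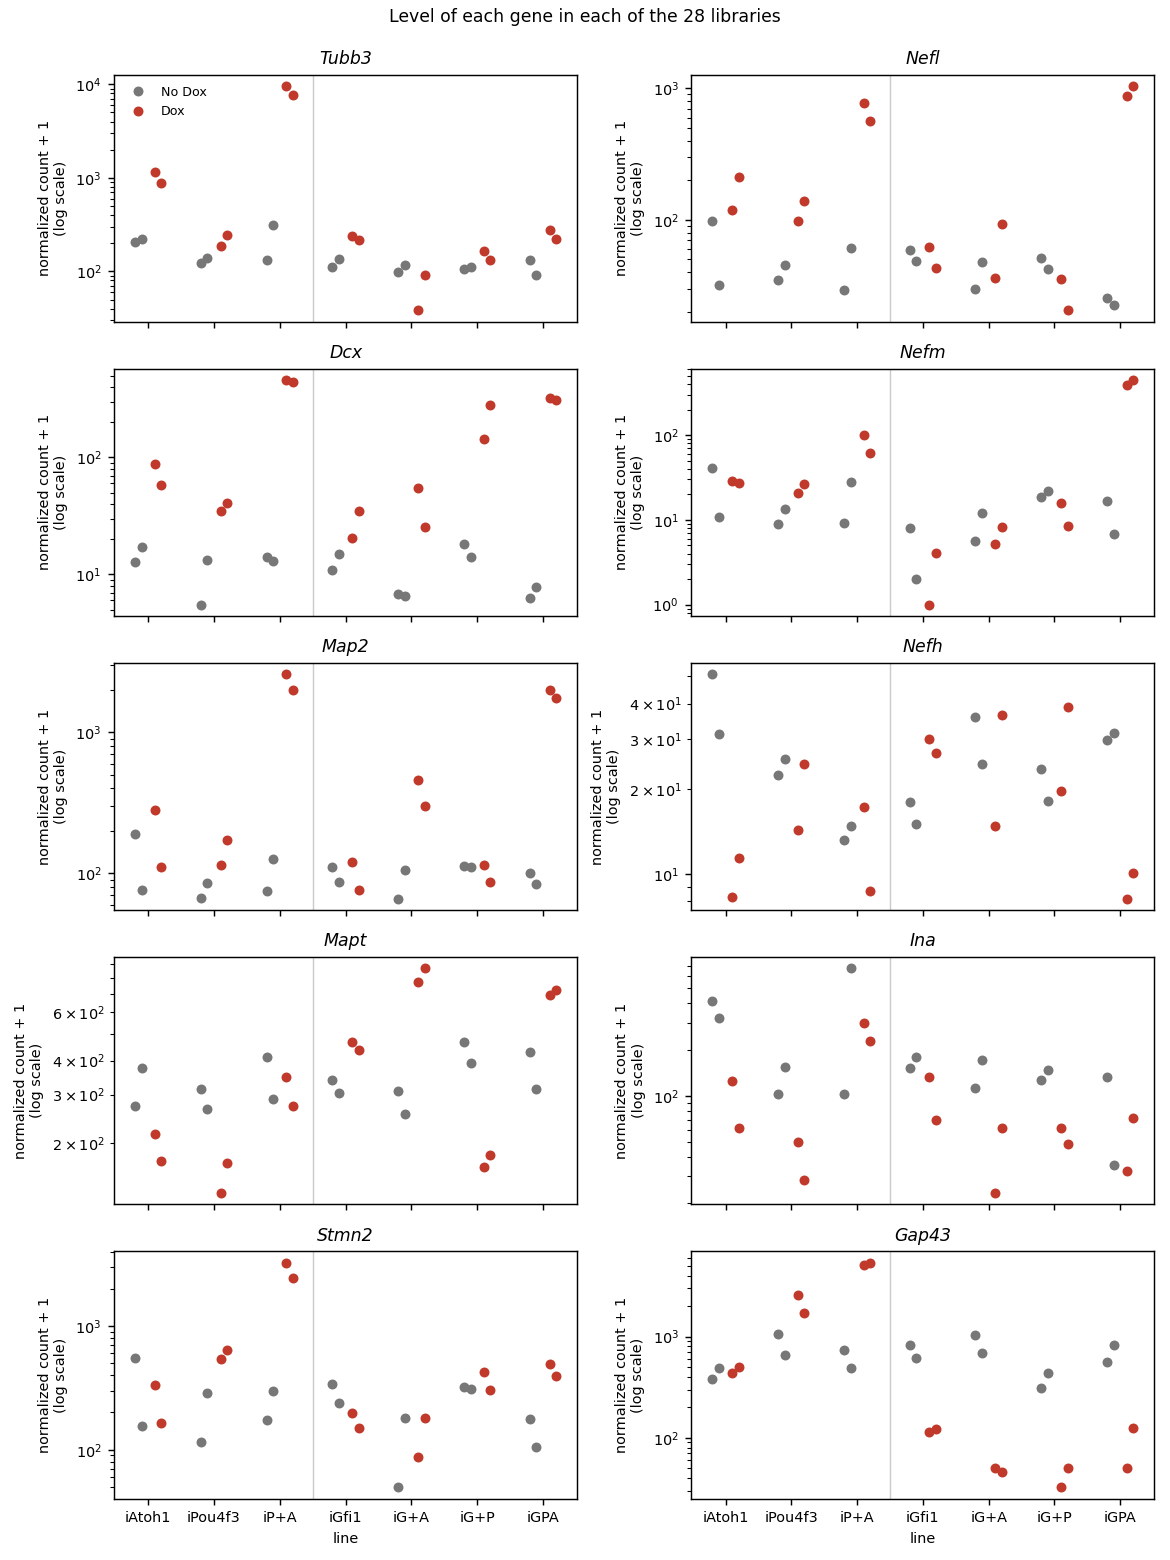
Normalized count plus 1 on a log axis of each gene in each library, with No Dox libraries in grey and Dox libraries in red, 2 of each per line, and a vertical line between lines without Gfi1 (left) and with Gfi1 (right). Gap43 in Dox libraries lies between 31.4 and 124 in every line with Gfi1 and between 433 and 5390 in every line without it, and Nefl in Dox libraries lies between 559.8 and 1048 in iP+A and iGPA and at most at 210.2 in the other lines.

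A gene is said to rise or fall where its log2 fold change of Dox against No Dox was at least 1.5 and its adjusted p, from limma over all 16837 genes with at least 10 normalized counts in 2 libraries, was under 0.05. All 10 genes passed the filter on low values. The most rises were those in iP+A cells, in which 7 of the 10 genes rose and the median log2 fold change was 3.39. In all genes 4.7% rose and 2.58% fell in this line, with a median of -0.03. In iGPA cells 7 genes passed as well, of which 5 rose and 2 fell (median 1.43), where 8.65% of all genes rose and 5.31% fell. In iAtoh1 cells 3 rose and 2 fell (2.89% and 2.52% of all genes), and in iG+A cells again 3 rose and 2 fell (7.35% and 4.95%). Among the other lines, iG+P had 1 rise and 1 fall (5.16% and 5.36%), iPou4f3 had 1 rise (1.47%, with 0.606% of all genes falling) and iGfi1 had 1 fall (2.67%, with 2.15% rising). With a replicate block, which pairs libraries of the same number, the count in iPou4f3 cells became 2 by the gain of Stmn2, while it became 6 in iP+A cells by the loss of Nefm and 4 each in iAtoh1 and iG+A cells by the loss of Ina.

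**Figure D2:**
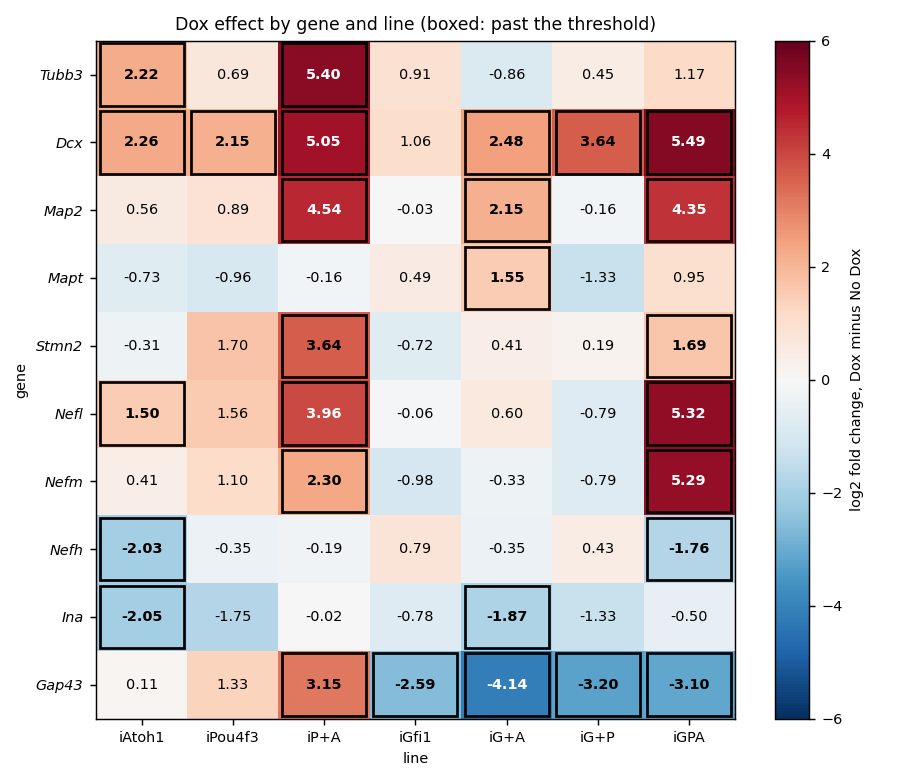
Log2 fold change of Dox against No Dox for each gene (rows) in each line (columns), coloured from blue (lower with Dox) to red (higher with Dox), with boxes around values past the threshold. The iP+A column holds 7 boxed rises, Dcx is boxed in 6 lines, and Gap43 is boxed in blue in each of the 4 lines with Gfi1.

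Tubb3 was highest in iP+A Dox cells, at 9649 and 7736 normalized counts against 132 and 312 without Dox. The 2 groups were far apart, and the log2 fold change was 5.40 ± 0.36 (SE, limma adjusted p = 4.485e-09). In iAtoh1 cells it rose from 205 and 223 to 1142 and 870.2 (2.22 ± 0.36, adjusted p = 0.000247). The Dox values were far lower in every other line, with or without Gfi1. The iGPA Dox libraries held 278 and 222 against 133 and 91.4 (1.17 ± 0.36), short of the fold threshold although the adjusted p was 0.0129. In iG+A cells the values were 37.2 and 91.5 with Dox and 98.6 and 117 without (-0.86 ± 0.36, adjusted p = 0.0629). Tubb3 did not pass in iGfi1 (0.91 ± 0.36, adjusted p = 0.0697), iPou4f3 (0.69 ± 0.36, adjusted p = 0.326) or iG+P cells (0.45 ± 0.36, adjusted p = 0.370). In each of these lines both Dox libraries lay above both No Dox libraries. The Dox libraries of iG+A lay below those of every other line, and those of iGPA, iGfi1 and iPou4f3 overlapped. Without iG+A Dox replicate 2 the fall in iG+A passed (-1.5, adjusted p = 0.00437).

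Dcx, a gene of migrating young neurons, rose in 6 of the 7 lines and was the member that passed the test most often. Its values went from 13.2 and 11.96 to 458 and 441 in iP+A cells (5.05 ± 0.44, limma adjusted p = 1.343e-07), and in iGPA cells from 5.24 and 6.88 to 323 and 306 (5.49 ± 0.44, adjusted p = 1.819e-08). The iG+P line, which lacks an Atoh1 transgene, went from 17.4 and 13.02 to 142 and 279 (3.64 ± 0.44, adjusted p = 4.351e-06). Smaller rises were those of iG+A, from 5.80 and 5.601 to 54.3 and 24.4 (2.48 ± 0.44), and iAtoh1, from 11.7 and 16.3 to 86.9 and 56.7 (2.26 ± 0.44). In iPou4f3 cells Dcx rose from 4.51 and 12.3 to 33.8 and 40.1 (2.15 ± 0.44, adjusted p = 0.00695). That last call was lost without No Dox replicate 1 (1.51, adjusted p = 0.161), without Dox replicate 2 (2.02, adjusted p = 0.0736) and with only the 2 iPou4f3 groups in the fit (adjusted p = 0.147). In iGfi1 cells Dcx was at 19.3 and 34.0 against 9.98 and 14 (1.06 ± 0.44, adjusted p = 0.0869). In all 7 lines both Dox libraries lay above both No Dox libraries.

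Map2 rose in iP+A, iGPA and iG+A cells, the lines that combine Atoh1 with another factor. It went from 73.8 and 126 to 2588 and 1985 in iP+A cells (4.54 ± 0.44, limma adjusted p = 4.708e-07), and in iGPA cells from 99.0 and 83.1 to 1989 and 1745 (4.35 ± 0.44, adjusted p = 2.94e-07). These 2 groups of Dox libraries overlapped, and iG+A, at 458 and 298 against 64.9 and 105 (2.15 ± 0.44), lay below them. In iAtoh1 cells the values of 282 and 109 with Dox overlapped those of 189 and 75.1 without (0.56 ± 0.44, adjusted p = 0.396). The other 3 lines gave log2 fold changes from -0.16 to 0.89 that did not pass the test.

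Mapt, the tau gene, did not follow Map2. It rose in iG+A cells, from 310 and 254 to 777 and 869 normalized counts (1.55 ± 0.21, limma adjusted p = 1.651e-05), and lay at 691 and 723 against 430.0 and 312 in iGPA cells (0.95 ± 0.21, adjusted p = 0.00141, under the fold threshold). The iG+A value fell short of the fold threshold without No Dox replicate 2 (1.40), without Dox replicate 2 (1.47), with quantile normalization (1.39) and with all No Dox libraries as 1 control group (1.30). In iP+A cells, where Tubb3, Dcx and Map2 rose, Mapt was at 346 and 272 against 410 and 289 (-0.16 ± 0.21, adjusted p = 0.622). It was lower with Dox, with an adjusted p under 0.05 but a fold change under the threshold, in iG+P (-1.33 ± 0.21), iPou4f3 (-0.96 ± 0.21) and iAtoh1 (-0.73 ± 0.21). In iGfi1 cells both Dox libraries, at 466 and 437, were above the untreated 339 and 302 (0.49 ± 0.21, adjusted p = 0.0972).

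Stmn2 rose most in iP+A cells, from 172 and 295 to 3252 and 2454 normalized counts (3.64 ± 0.60, limma adjusted p = 0.000216). In iGPA cells it rose from 176 and 105 to 491 and 394 (1.69 ± 0.60, adjusted p = 0.0291). That second call was lost without No Dox replicate 2 (adjusted p = 0.185), without Dox replicate 1 (adjusted p = 0.130), without Dox replicate 2 (adjusted p = 0.0651), with quantile normalization (1.34) and with pooled controls (1.12). In iPou4f3 cells Stmn2 was at 540.0 and 643 against 114 and 285 (1.70 ± 0.60, adjusted p = 0.124), which passed with the replicate block (adjusted p = 0.0089). The untreated level of Stmn2 spread widely between clones, as in iAtoh1 at 547 and 153, and its fold changes in iAtoh1, iGfi1, iG+A and iG+P, from -0.72 to 0.41, did not pass the test.

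The light and medium neurofilament genes rose in the same pair of lines. Nefl went from 24.5 and 21.6 to 877 and 1048 normalized counts in iGPA cells (5.32 ± 0.51, limma adjusted p = 1.473e-07), and in iP+A cells from 28.5 and 59.7 to 776 and 559.8 (3.96 ± 0.51, adjusted p = 1.406e-05). Nefm went from 15.7 and 5.89 to 393 and 446 in iGPA cells (5.29 ± 0.77, adjusted p = 2.168e-05), and in iP+A cells from 8.15 and 26.6 to 98.7 and 60.5 (2.30 ± 0.77, adjusted p = 0.0366). The Dox libraries of iGPA were above those of iP+A for both genes. The Nefm rise in iP+A cells missed the threshold with the replicate block (adjusted p = 0.058), with a pseudocount of 0.5 (adjusted p = 0.0613), with only the compared groups in the fit (adjusted p = 0.087), without No Dox replicate 1 (1.5, adjusted p = 0.276), without Dox replicate 1 (1.95, adjusted p = 0.209) and without Dox replicate 2 (2.65, adjusted p = 0.0718).

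Nefl also rose in iAtoh1 cells, to 119 and 210.2 from 97.7 and 31.0, with a log2 fold change of 1.5005 ± 0.51 that sat at the threshold (limma adjusted p = 0.0402). That call was lost without No Dox replicate 2 (0.69, adjusted p = 0.423), without Dox replicate 2 (1.09, adjusted p = 0.261), with a pseudocount of 5 (1.42), with quantile normalization (1.49), without a trend in the variance (adjusted p = 0.0515) and with only the compared groups in the fit (adjusted p = 0.207). In iPou4f3 cells Nefl, at 98.0 and 138 against 33.9 and 44.6, did not pass (1.56 ± 0.51, adjusted p = 0.0926). In iG+P cells, which share Pou4f3 with that line, both Dox libraries of Nefl, at 34.4 and 19.5, were below the untreated 50.2 and 41.1 (-0.79 ± 0.51, adjusted p = 0.257). Nefm was at 0 and 3.09 in iGfi1 Dox cells, and none of its other fold changes, from -0.98 to 1.10, passed the test.

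Nefh and Ina did not rise in any line, and neither passed in iP+A cells. Nefh, the heavy neurofilament gene, fell in iAtoh1 cells from 49.8 and 30.2 to 7.31 and 10.4 normalized counts (-2.03 ± 0.46, limma adjusted p = 0.00376) and in iGPA cells from 28.8 and 30.5 to 7.16 and 9.08 (-1.76 ± 0.46, adjusted p = 0.00438). The first of these calls was lost without No Dox replicate 1 (-1.68, adjusted p = 0.0531) and with only the compared groups in the fit (adjusted p = 0.0613), the second with a pseudocount of 5 (-1.40), and both fell short of the fold threshold with all No Dox libraries as 1 control group (-1.28 and -1.38). Nefh was low throughout, its highest value anywhere was 49.8, and the number of reads behind these values is not known. Its fold changes in the other 5 lines lay between -0.35 and 0.79 and did not pass. So the 3 neurofilament subunits did not move together in iGPA cells: the light and medium genes rose while the heavy gene fell.

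Ina fell in iAtoh1 cells, from 416 and 318 to 124 and 60.5 normalized counts (-2.05 ± 0.72, limma adjusted p = 0.0469), and in iG+A cells, from 111 and 171 to 22.3 and 61.0 (-1.87 ± 0.72, adjusted p = 0.0451). Neither call held with the replicate block, at adjusted p = 0.0534 and 0.0542, or with no filter on low values, without a trend in the variance or with only the compared groups in the fit (adjusted p from 0.0523 to 0.0722). The iAtoh1 call was lost without any 1 of its 4 libraries (adjusted p from 0.061 to 0.267) and with pooled controls (-0.86). The iG+A call was lost without No Dox replicate 1 (adjusted p = 0.0766), No Dox replicate 2 (adjusted p = 0.193) or Dox replicate 1 (-1.17, adjusted p = 0.317) and with rescaling by the 75th percentile (adjusted p = 0.0506). The log2 fold change of Ina was negative in all 7 lines, from -2.05 to -0.02, the last of these in iP+A cells (0.70 with pooled controls). With pooled controls Ina passed in iPou4f3 (-2.08, adjusted p = 0.0447) and iGPA cells (-1.72, adjusted p = 0.0269). The iP+A Dox libraries, at 299 and 225, were the highest of the Dox libraries.

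Gap43 divided the lines by the presence of Gfi1. It fell in iGfi1 cells from 818 and 616 to 112 and 122 normalized counts (-2.59 ± 0.37, limma adjusted p = 7.448e-05) and in iG+A cells from 1045 and 683 to 49.0 and 45.1 (-4.14 ± 0.37, adjusted p = 1.044e-07). In iG+P cells it fell from 311 and 436 to 31.4 and 48.8 (-3.20 ± 0.37, adjusted p = 2.227e-06) and in iGPA cells from 556 and 829 to 49.2 and 124 (-3.10 ± 0.37, adjusted p = 1.889e-06). These 4 lines are the ones with a Gfi1 transgene, and in each the Dox libraries lay below the No Dox libraries. In iP+A cells, by contrast, Gap43 rose from 732 and 483 to 5156 and 5390 (3.15 ± 0.37, adjusted p = 4.584e-06). In iPou4f3 cells it was at 2556 and 1716 against 1057 and 655 (1.33 ± 0.37, adjusted p = 0.044, under the fold threshold but past it with pooled controls, at 1.77), and in iAtoh1 cells at 433 and 496 against 382 and 484 (0.11 ± 0.37, adjusted p = 0.868). None of these 5 calls of Gap43 was lost under any of the alternatives tried.

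The Dox effects of lines that differ by 1 factor were compared directly, as the difference of their log2 fold changes in the same limma fit. Where Gfi1 was added to Atoh1 (iG+A against iAtoh1), the effect was lower for Tubb3 by a log2 difference of -3.08 ± 0.51 (adjusted p = 0.000429) and for Gap43 by -4.25 ± 0.52 (adjusted p = 2.673e-05). It was higher for Mapt by 2.28 ± 0.30 (adjusted p = 5.739e-05). In all genes 6.87% passed this test in either direction. Where Gfi1 was added to Pou4f3 (iG+P against iPou4f3), Gap43 was again lower, by -4.53 ± 0.52 (adjusted p = 1.153e-05), and Nefl was lower by -2.34 ± 0.72 (adjusted p = 0.0301), with 7.63% of all genes passing. Dcx differed by 1.49 ± 0.63 in that comparison (adjusted p = 0.111) and passed with a pseudocount of 5 (1.64, adjusted p = 0.0353), with pooled controls (2.40, adjusted p = 0.00207) and without iPou4f3 No Dox replicate 1 (2.13, adjusted p = 0.0353). Where Gfi1 was added to Pou4f3 and Atoh1 (iGPA against iP+A), Tubb3 was lower by -4.24 ± 0.51 (adjusted p = 2.042e-05) and Gap43 by -6.25 ± 0.52 (adjusted p = 7.972e-07), with 7.6% of all genes passing. Thus Gap43 passed, in the same direction, in each of the 3 comparisons that added Gfi1, and Tubb3 in the 2 that had Atoh1 in both lines. These differences share groups with the single line effects above and are not independent of them. Pou4f3 itself was also higher in iG+P Dox cells (17590 and 19883) than in iPou4f3 Dox cells (4694 and 5381). The part of this in the differences between these 2 lines was not tested.

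The remaining genes did not pass in iGPA against iP+A. The difference was -0.19 ± 0.62 for Map2 (limma adjusted p = 0.871), 0.44 ± 0.63 for Dcx (adjusted p = 0.681), 1.36 ± 0.72 for Nefl (adjusted p = 0.206) and 2.99 ± 1.10 for Nefm (adjusted p = 0.0653). The Nefm difference passed without iP+A No Dox replicate 1 (3.79, adjusted p = 0.035), with a pseudocount of 5 (adjusted p = 0.0112) and with pooled controls (adjusted p = 0.0451). Ina, too, passed with pooled controls (-2.43, adjusted p = 0.0313). Mapt was higher by 1.11 ± 0.30, under the fold threshold. For Stmn2 the difference of -1.96 ± 0.85 missed the threshold (adjusted p = 0.12) and passed it with the replicate block (adjusted p = 0.00949), with only the compared groups in the fit (adjusted p = 0.03) and with pooled controls (-2.68). Of the comparisons in the preceding paragraph, the Nefl difference between iG+P and iPou4f3 depended on single libraries. It was lost without iPou4f3 No Dox replicate 1 or either iPou4f3 Dox replicate (adjusted p from 0.0517 to 0.101), and without either iG+P No Dox replicate or iG+P Dox replicate 2 (adjusted p from 0.0502 to 0.125). The block added Stmn2 in iG+P against iPou4f3 (-1.52 ± 0.85, adjusted p = 0.0318 with the block) and Map2 in iG+A against iAtoh1 (1.60 ± 0.62, adjusted p = 0.093 without and 0.0211 with the block). The Map2 difference also passed without iAtoh1 No Dox replicate 2 (2.25, adjusted p = 0.0219) or Dox replicate 1 (2.28, adjusted p = 0.0222), and without iG+A Dox replicate 1 Nefh passed in that comparison (2.33, adjusted p = 0.0229).

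**Figure D3:**
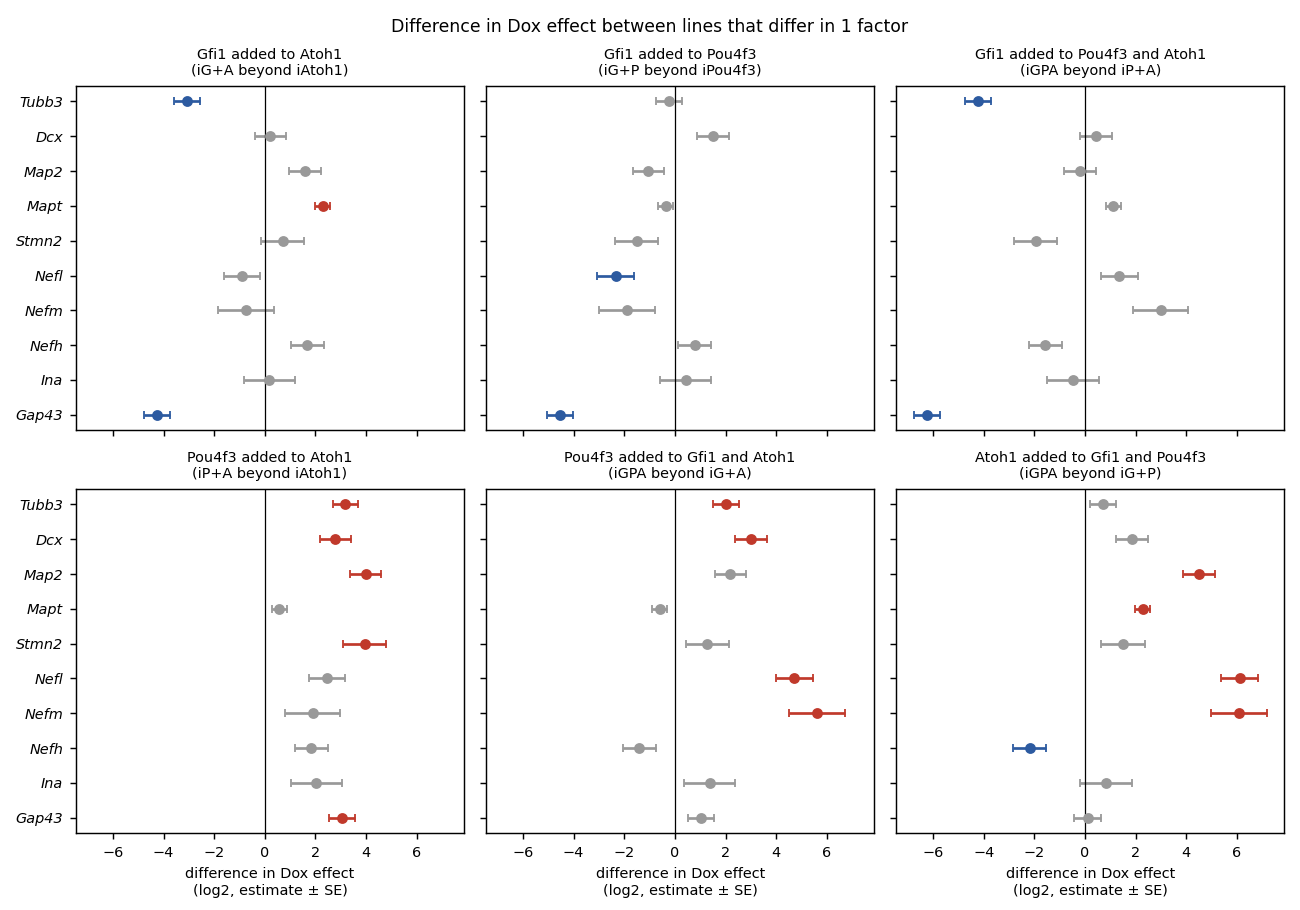
Difference between the Dox effects of 2 lines that differ by 1 factor (horizontal axis, log2 scale) for each gene, with points at the estimate and bars of 1 SE, red where higher and blue where lower past the threshold. Gap43 lies at -4.25, -4.53 and -6.25 in the 3 upper panels, which add Gfi1, whereas Nefl and Nefm lie between 4.72 and 6.11 in the last 2 panels of the lower row.

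Where Pou4f3 was added to Atoh1 (iP+A against iAtoh1), 5 of the 10 genes had a larger effect, with 2.78% of all genes passing in either direction. These were Map2 by 3.98 ± 0.62 (limma adjusted p = 0.00059), Stmn2 by 3.95 ± 0.85 (adjusted p = 0.00863), Tubb3 by 3.19 ± 0.51 (adjusted p = 0.000705), Gap43 by 3.04 ± 0.52 (adjusted p = 0.00131) and Dcx by 2.79 ± 0.63 (adjusted p = 0.0112). Nefl, at 2.46 ± 0.72, missed the threshold (adjusted p = 0.0534) and passed it with the replicate block (adjusted p = 0.0471), with a pseudocount of 5 (adjusted p = 0.0389), with quantile normalization (adjusted p = 0.041), with pooled controls (2.05, adjusted p = 0.0121), without iAtoh1 No Dox replicate 2 (adjusted p = 0.00985) and without iP+A No Dox replicate 2 (adjusted p = 0.0309). Dcx did not pass without iAtoh1 Dox replicate 2 (2.49, adjusted p = 0.0603). Stmn2 did not pass without iAtoh1 No Dox replicate 1 (3.03, adjusted p = 0.0579) or iAtoh1 Dox replicate 2 (3.44, adjusted p = 0.0546), or with only the compared groups in the fit (adjusted p = 0.0775). In that last fit Map2 was lost too (adjusted p = 0.0624), and 3 genes passed. The count was 3 without iAtoh1 Dox replicate 2 and 7 without iP+A No Dox replicate 2.

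Where Pou4f3 was added to Gfi1 and Atoh1 (iGPA against iG+A), 4 genes had a larger effect, with 2.2% of all genes passing. They were Nefm by 5.62 ± 1.10 (limma adjusted p = 0.00504), Nefl by 4.72 ± 0.72 (adjusted p = 0.000584), Dcx by 3.01 ± 0.63 (adjusted p = 0.00794) and Tubb3 by 2.03 ± 0.51 (adjusted p = 0.0279). The Tubb3 difference was lost without any 1 of 6 of the 8 libraries (both No Dox and Dox replicate 1 of iG+A, and No Dox replicate 2 and both Dox replicates of iGPA), with adjusted p from 0.0516 to 0.117. With only the compared groups in the fit Tubb3 (adjusted p = 0.187) and Dcx (adjusted p = 0.0684) did not pass. Map2 missed the threshold (2.19 ± 0.62, adjusted p = 0.0535) and passed it with the replicate block (adjusted p = 0.0109), a pseudocount of 5, quantile normalization, pooled controls and without iG+A Dox replicate 1 (adjusted p from 0.000633 to 0.0454).

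Where Atoh1 was added to Gfi1 and Pou4f3 (iGPA against iG+P), 4 genes had a larger and 1 a smaller effect, with 5.9% of all genes passing. Nefl was higher by 6.11 ± 0.72 (limma adjusted p = 2.49e-05), Nefm by 6.08 ± 1.10 (adjusted p = 0.00103), Map2 by 4.51 ± 0.62 (adjusted p = 0.000106) and Mapt by 2.27 ± 0.30 (adjusted p = 7.582e-05). Nefh was lower by -2.18 ± 0.65 (adjusted p = 0.0291), a call lost with the replicate block (adjusted p = 0.0528), with only the compared groups in the fit (adjusted p = 0.0505) and without any 1 of 6 of the 8 libraries, all but iG+P Dox replicate 1 and iGPA Dox replicate 2 (adjusted p from 0.0524 to 0.153). Dcx, already raised in iG+P cells, differed by 1.85 ± 0.63 (adjusted p = 0.0526), which passed with the replicate block (adjusted p = 0.0485), with the filter at 50 normalized counts (adjusted p = 0.0493) and without iG+P Dox replicate 2 (adjusted p = 0.04). Gap43 differed by 0.10 ± 0.52 (adjusted p = 0.93).

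Against iAtoh1 cells, iGPA cells, which differ by 2 factors, had larger effects on Nefm (4.88 ± 1.10, limma adjusted p = 0.00376), Nefl (3.82 ± 0.72, adjusted p = 0.000912), Map2 (3.79 ± 0.62, adjusted p = 0.000272), Dcx (3.23 ± 0.63, adjusted p = 0.00117) and Mapt (1.68 ± 0.30, adjusted p = 0.000616). Gap43 had a smaller effect (-3.21 ± 0.52, adjusted p = 0.000238), and 9.03% of all genes passed. The Mapt difference fell short of the fold threshold with quantile normalization (1.47) and without No Dox replicate 2 of iAtoh1 (1.45) or of iGPA (1.45). Tubb3 differed by -1.05 ± 0.51 (adjusted p = 0.164), and with pooled controls it passed at -1.999 (adjusted p = 0.00124). Stmn2, at 1.99 ± 0.85 (adjusted p = 0.113), passed only with the replicate block (adjusted p = 0.00753) and without iAtoh1 No Dox replicate 2 (2.91, adjusted p = 0.0224).

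The effects of pairs were also set against the sum of the effects of their single factors on the log2 scale. The sums for iP+A and iG+P use iPou4f3 cells, in which Pou4f3 itself was lower than in these pairs, and the part of this was not tested. For iG+A, Tubb3 was below the sum by -3.99 ± 0.62 (limma adjusted p = 0.00185) and Mapt above it by 1.79 ± 0.37 (adjusted p = 0.00933), where 2.99% of all genes passed in either direction. With the replicate block Gap43 passed too (-1.65 ± 0.64, adjusted p = 0.0158), and with pooled controls Dcx did (-2.24, adjusted p = 0.0343, against -0.83 with the controls of each line). For iP+A no gene of the 10 passed the threshold, which 0.422% of all genes did. At an unadjusted p under 0.05, a looser cut for which no share of all genes is given, there were 7 of the 10. The largest departures were Ina at 3.79 ± 1.25 (adjusted p = 0.203), Map2 at 3.09 ± 0.76 (adjusted p = 0.0753), Tubb3 at 2.49 ± 0.62 (adjusted p = 0.0798) and Stmn2 at 2.24 ± 1.05 (adjusted p = 0.405). The count became 2 with the replicate block, by Map2 (adjusted p = 0.0178) and Gap43 (adjusted p = 0.0398), 3 with pooled controls, by Tubb3, Map2 and Mapt (adjusted p from 0.00117 to 0.0152), 3 without iP+A No Dox replicate 2, by Tubb3, Map2 and Ina (adjusted p from 0.0151 to 0.0488), and 1, Map2, with quantile normalization and without iAtoh1 No Dox replicate 2 or iAtoh1 Dox replicate 1. For iG+P no gene of the 10 passed the threshold, which 0.208% of all genes did. At an unadjusted p under 0.05, again without a share of all genes, there were 3 of the 10. Gap43 passed the threshold with the block (-1.94 ± 0.64, adjusted p = 0.0484) and with pooled controls (-3.33, adjusted p = 0.00273).

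Levels of different genes were compared per kilobase of the longest coding transcript. In iP+A Dox cells, Tubb3 reached a mean of 4653 normalized counts per kilobase, Gap43 3713 and Stmn2 1498, ahead of Map2 at 366, Nefl at 198, Ina at 80.8, Mapt at 58.8, Dcx at 49.5, Nefm at 21.6 and Nefh at 3.00. In iGPA Dox cells the order was different, with Map2 at 298 and Nefl at 285 first, followed by Stmn2 at 232, Mapt at 135, Tubb3 at 134, Nefm at 114, Gap43 at 61.0, Dcx at 34.6, Ina at 15.8 and Nefh at 2.03. In both lines before Dox, Gap43 was the highest of the 10, at 428 and 488 per kilobase.

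Over the 14 group means of log2 values, Map2 and Nefl had the most similar patterns among the 10 genes (Pearson r = 0.913), followed by Nefl and Nefm (0.809), Dcx and Map2 (0.801) and Tubb3 and Stmn2 (0.794). The most opposed were Nefl and Nefh (-0.759). The points share the Dox and No Dox structure of the 7 lines, so these values are a description. Among all other genes, the closest patterns were those of Grik3, Adamts8 and Lhx9 for Tubb3 (r from 0.931 to 0.958), Socs2, Strbp and Grin2c for Dcx (0.967 to 0.987), Scg3, Dlk2 and Brsk2 for Map2 (0.961 to 0.966) and Dab1, Trarg1 and Kif5a for Stmn2 (0.942 to 0.967). For the filament genes they were Ube2o, Srpk2 and Enah for Nefl (0.918 to 0.931), Ube2o, Ogdhl and Enah for Nefm (0.897 to 0.929) and Psmd14, Zmynd19 and Sephs2 for Nefh (0.912 to 0.918). Gap43 was closest to Wbp4, Wdr47 and Tsg101 (0.954 to 0.967), and Mapt less close to Chrm4, Fbxo40 and Zc3h12d (0.850 to 0.865).

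Genes related to the 10 are given as counts and median log2 fold changes, with no test of a list. They are named for iAtoh1, iP+A and iGPA cells, and some also passed in other lines. Of 14 other tubulins, 2 rose and 1 fell in iP+A cells: Tubb2b, a beta-tubulin of the developing brain (2.17 ± 0.29, limma adjusted p = 2.566e-05), Tubb4a (2.05 ± 0.37) and Tubb1 (-2.94 ± 0.45). In iGPA cells Tubb4a rose (3.34 ± 0.37) and Tubb1 fell (-2.82 ± 0.45), and in iAtoh1 cells Tubb1 fell (-3.05 ± 0.45). Tubb1 is the beta-tubulin of platelets, and 5 of 6 blood markers fell in iAtoh1 and in iP+A cells and 4 of 6 in iGPA cells. Their part in the fall of Tubb1 was not tested. The median of the tubulins was 0.00 in iP+A cells and 0.04 in iGPA cells.

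Of 24 relatives of the microtubule-binding members, 10 rose and 1 fell in iP+A cells, led by Stmn3 (4.19 ± 0.70) and Dclk1, a doublecortin-like kinase (4.10 ± 0.42), with Dclk3 falling (-2.59 ± 0.48). In iGPA cells 6 rose and 1 fell, with Stmn4 (3.86 ± 0.67) and Stmn3 (3.74 ± 0.70) rising and Map4, a microtubule-associated protein of many tissues, falling (-1.91 ± 0.12). In iAtoh1 cells 2 rose, Dpysl4 (3.41 ± 0.69) and Map6 (2.59 ± 0.32). The medians of this list were 0.66, 0.09 and 0.05 in these 3 lines. Of 12 growth cone proteins, Tagln3 rose in iAtoh1 cells (2.75 ± 0.48) and Gprin1 (4.10 ± 0.49) and Tagln3 (3.39 ± 0.48) in iP+A cells, and none passed in iGPA cells, with list medians of 0.38, 0.41 and -0.29 in iAtoh1, iP+A and iGPA. Of 12 axonal motor genes, Kif5a (2.18 ± 0.26) and Kif21a (1.80 ± 0.38) rose in iP+A cells and Kif21a (2.93 ± 0.38) and Kif1a (2.12 ± 0.29) in iGPA cells, with medians of 0.51 and 0.28. Kif21a also rose in iG+P (2.52 ± 0.38) and iPou4f3 cells (2.11 ± 0.38). Of 11 kinases and activators that act on tau and neurofilaments, the Cdk5 activator Cdk5r1 rose in iAtoh1 (2.48 ± 0.31) and iP+A cells (3.04 ± 0.31) and Cdk5r2 in iGPA cells (3.18 ± 1.05), with medians of 0.18, 0.39 and 0.29 in these 3 lines.

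**Figure D4:**
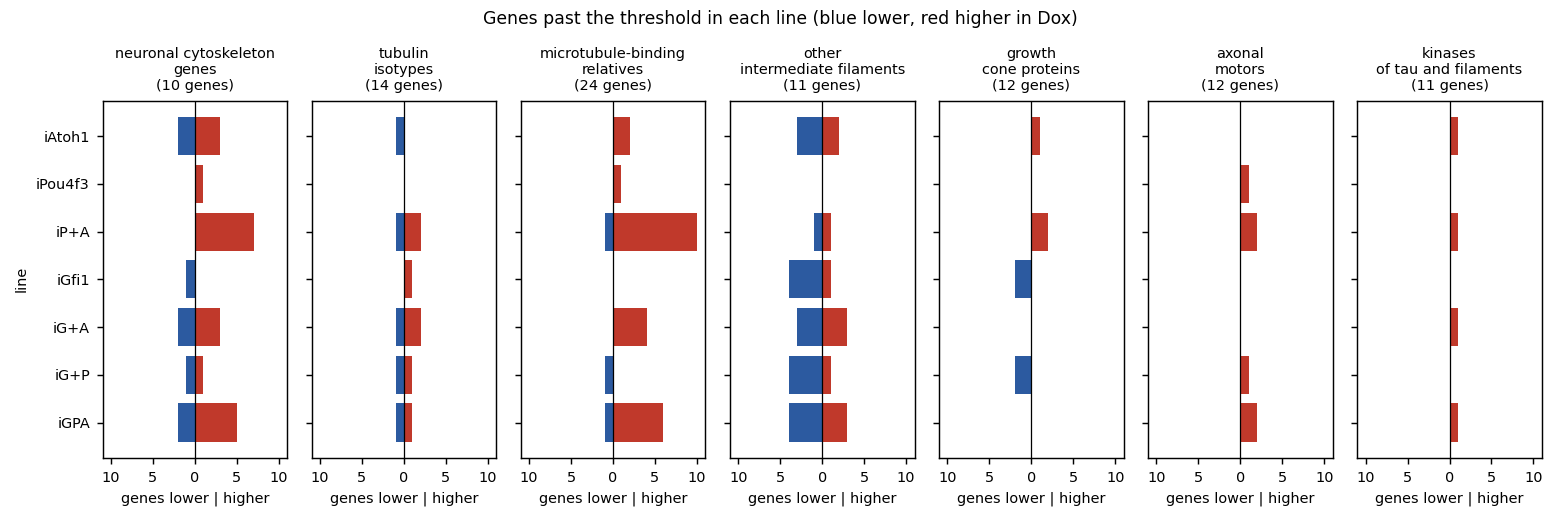
Number of genes past the threshold in each line for the 10 genes and 6 related lists, with bars to the right (red) for genes higher and to the left (blue) for genes lower with Dox. The 10 genes reach 7 rises in iP+A and 5 in iGPA, and the 24 relatives of the microtubule-binding members reach 10 and 6.

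Among 11 other intermediate filament genes, Prph (peripherin, a filament of peripheral neurons) rose in iAtoh1 (4.34 ± 0.43, limma adjusted p = 1.599e-06), iP+A (4.30 ± 0.43) and iGPA cells (3.95 ± 0.43). It also rose in iG+A cells (3.14 ± 0.43). In iAtoh1 cells Des also rose (2.15 ± 0.37) and 3 keratins fell, with Krt8 at -2.09 ± 0.30 and Krt18 at -2.06 ± 0.34. In iP+A cells Krt19 fell (-2.05 ± 0.26), and in iGPA cells 3 genes rose, with Gfap at 2.97 ± 0.63 next to Prph, while 4 fell, led by Krt19 (-3.60 ± 0.26) and Krt8 (-2.71 ± 0.30). The medians of the list were -0.02, -0.83 and -0.59 in the 3 lines.

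Markers of cell types moved with the same comparisons. Of 8 neuronal markers outside the cytoskeleton, 7 rose in iP+A and in iGPA cells, 5 in iG+A, 3 in iAtoh1 and 2 each in iG+P and iPou4f3. Their summed level was 6420 to 10300 normalized counts in iP+A Dox and 6090 to 6230 in iGPA Dox libraries, against 397 to 711 over all No Dox libraries. Of 7 hair cell markers, 4 rose in iGPA, 3 each in iG+A and iG+P, 2 in iP+A and 1 in iPou4f3 cells. Their summed level overlapped in iGPA, at 14700 to 41100 without and 38000 to 42400 with Dox, and also in iAtoh1, iGfi1, iG+A and iP+A. It was higher with Dox in iG+P (67700 to 77100 against 29500 to 56700) and iPou4f3 (50800 to 51700 against 31400 to 44100). Of 7 markers of mesenchyme and fibroblasts, 6 fell in iGPA, 5 in iG+A, 3 each in iG+P and iAtoh1, 2 in iGfi1, 1 in iP+A and 0 in iPou4f3 cells, and their sum in iGPA went from between 64800 and 112000 to between 6570 and 9120. The summed blood markers went from 102000 to 118000 without Dox to 11900 to 28800 with it in iP+A, and from 65600 to 135000 to 31700 to 81600 in iG+P. Of 6 neural progenitor markers, 3 rose in iG+A, 2 each in iAtoh1 and iGPA and 1 each in iG+P and iP+A, and 1 fell each in iG+A and iP+A. Of 4 epithelial markers 2 fell in each of iAtoh1, iGfi1, iG+A, iG+P and iGPA, and of 4 endothelial markers 2 fell in iAtoh1 and iG+P and 1 in iP+A and iGPA. Of 6 pluripotency markers 3 fell in iG+A and in iGPA, 1 in iG+P and 4 in iP+A cells, and their summed level in the 2 untreated iP+A libraries was 3100 and 20000. These shifts move with the Dox effects above, and their part in the changes of the 10 genes was not tested.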

How the data were processed

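The 28 libraries were made by the authors from mRNA with a KAPA kit and sequenced on an Illumina HiSeq. Per the labels and the methods of the study, the authors trimmed reads with cutadapt, assigned them with kallisto at default settings to the mm9 transcripts of the UCSC knownGene set, used tximport for gene totals and DESeq2 for the normalization. The deposited values are log2(normalized count + 1) by Entrez gene ID, of which 19314 were named from a RefSeq table and 107 were not. Whole reads were not recovered from them: in values up to 20, whole multiples of a library's most common smallest value, to within 0.05, made up only 70.62% to 79.44%. The depth in reads is thus unknown, and the log2 values were tested with limma 3.58.1 in R 4.3.3 in place of a count test, with the thresholds of the study (adjusted p under 0.05, log2 fold change of at least 1.5).

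The filter asked for 10 normalized counts or more in 2 libraries or more and left 16837 genes. Groups were taken from the labels and fitted together, with 1 coefficient for each of 14 groups, a variance trend along the mean level and 14 residual degrees of freedom. Fold changes are on the log2(normalized count + 1) scale, which understates changes of low genes. P-values were adjusted by Benjamini-Hochberg over all genes within each comparison, and not across the 7 lines, the 7 differences between lines and the 3 sums. Equal replicate numbers were taken as the same clone from the series record, which gives replicates as different clones but does not say outright that numbers match with and without Dox. Across genes, the replicate differences of Dox and No Dox libraries of a line had a correlation of 0.246 (iP+A), 0.238 (iAtoh1), 0.231 (iPou4f3), 0.158 (iG+A), 0.152 (iGPA), 0.127 (iGfi1) and 0.103 (iG+P), and were best matched by the No Dox libraries of their own line in 4 of 7 lines and of another line in iGfi1, iG+A and iG+P. One alternative was therefore to block on the replicate within each line (7 residual degrees of freedom). Other alternatives were pseudocounts of 0.5 and 5, quantile normalization, scaling to the 75th percentile, a filter at 50 normalized counts or none, no trend, only the compared groups, all 14 No Dox libraries as one control group, a log2 threshold of 1, and each library left out in turn. A lone library left in a group is then assumed to vary like the other groups.

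The genes and lists were chosen with earlier results of these data known. The text names the 10 genes, the transgenes, up to 2 genes with the largest rise and 2 with the largest fall of each related list in iAtoh1, iP+A and iGPA, and the 3 genes with the most similar pattern to each member, which for Ina are not reported here. Cell type markers are textbook lists and were given as counts and sums. Locations are from GENCODE M1 on NCBIM37, and promoter windows from RefSeq on GRCm38.p6, which held 4 of the 10 genes.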

Additional observations from a re-analysis of the deposited data

Results flagged for a closer look

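The Dox effects of several genes differed between lines by the test of the difference itself (limma, adjusted p under 0.05 and a log2 difference of at least 1.5). With Gfi1 in place, the difference was negative for Gap43 in each of 3 comparisons, -4.25 in iG+A against iAtoh1, -4.53 in iG+P against iPou4f3 and -6.25 in iGPA against iP+A. Tubb3 gave -3.08 and -4.24 in the first and the last of these, Mapt 2.28 in the first and Nefl -2.34 in the second.

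With Pou4f3 added to Atoh1 (iP+A against iAtoh1), the differences were 3.19 for Tubb3, 2.79 for Dcx, 3.98 for Map2, 3.95 for Stmn2 and 3.04 for Gap43. With Pou4f3 added to Gfi1 and Atoh1 (iGPA against iG+A), they were 2.03 for Tubb3, 3.01 for Dcx, 4.72 for Nefl and 5.62 for Nefm.

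With Atoh1 added to Gfi1 and Pou4f3 (iGPA against iG+P), the differences were 4.51 for Map2, 2.27 for Mapt, 6.11 for Nefl, 6.08 for Nefm and -2.18 for Nefh. With both Gfi1 and Pou4f3 added to Atoh1 (iGPA against iAtoh1), they were 3.23 for Dcx, 3.79 for Map2, 1.68 for Mapt, 3.82 for Nefl, 4.88 for Nefm and -3.21 for Gap43. With 2 libraries per group, no group was large enough for a test of single outlying libraries.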

How the results depend on the processing

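Over 126 single values and 2023 repeats of them under the alternatives, 1845 kept their direction and their side of the threshold, 76 fell below it, 54 rose past it and 48 changed sign. Each sign change was of a value that did not pass the test. The number of the 10 genes past the threshold was 5 in iAtoh1 cells and became 3 without a trend, 2 with only the compared groups in the fit and 3 with pooled controls, with 3 to 4 when a library was left out. In iPou4f3 cells the count was 1 and became 2 with the replicate block and with a log2 threshold of 1, 0 with only the compared groups, 3 with pooled controls, and 0 to 1 with a library left out. Pooled controls gave 2 in iGfi1 cells in place of 1, by Nefm (-2.50), and 5 for iGPA against iP+A in place of 2. With only the compared groups, the count was 3 for iP+A against iAtoh1 in place of 5 (3 to 7 with a library left out) and 2 for iGPA against iG+A in place of 4. For iP+A against the sum it was 0 and became 1 with quantile normalization, 2 with the replicate block, 3 with pooled controls and 0 to 3 with a library left out, and for iG+P against the sum it became 1 with the block and 1 with pooled controls. With a library left out, iG+A gave 3 to 5, iG+P against iPou4f3 gave 1 to 2, and the untreated lines gave 0 to 2. Among these libraries, iG+A gave 3 without No Dox replicate 2 and iPou4f3 gave 0 without No Dox replicate 1 or Dox replicate 2. The block changed no other call than those given with the results. The cause of these changes was not tested.

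With pooled controls the sign changed for Stmn2 in iAtoh1 (0.22) and iG+A (-0.69), Gap43 in iAtoh1 (-0.40), Nefl in iGfi1 (0.31), Map2 (0.053) and Nefm (0.018) in iG+P, Ina in iP+A (0.70) and Dcx in iGPA against iP+A (-0.51). Quantile normalization changed it for Dcx in iGPA against iP+A (-0.0017) and Gap43 in iGPA against iG+P (-0.16), and rescaling by the 75th percentile for Map2 in iGfi1 (0.011). With a library left out, ranges that crossed 0 in iAtoh1 were -1.22 to 0.61 for Stmn2, -0.064 to 0.28 for Gap43, -0.13 to 1.24 for Map2 and -0.55 to 1.37 for Nefm. In iGfi1 they were -0.35 to 0.29 for Map2, -0.32 to 0.20 for Nefl and -2.0 to 0.031 for Nefm, in iPou4f3 -0.74 to 0.032 for Nefh, and in iG+A -0.52 to 1.34 for Stmn2, -0.88 to 0.23 for Nefm, -1.0 to 0.30 for Nefh and -0.075 to 1.28 for Nefl. In iG+P they were -0.059 to 0.44 for Stmn2, -0.37 to 0.042 for Map2 and -0.068 to 0.92 for Nefh, in iP+A -0.42 to 0.087 for Mapt, -1.37 to 1.34 for Ina and -0.69 to 0.31 for Nefh, and in iGPA -1.46 to 0.45 for Ina. For differences they were -0.56 to 0.76 for Gap43 in iGPA against iG+P, and -0.58 to 0.19 for Map2 and -1.84 to 0.87 for Ina in iGPA against iP+A.

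The F test of the untreated lines gave 2 of the 10 genes with the replicate block and 0 with only the No Dox groups in the fit (lowest adjusted p = 0.106), a setting chosen after seeing the data. With pooled controls it has no groups to compare. With 2 libraries per group and an unknown depth, the ratio of the highest to the lowest untreated library was 40 for Nefm, 19.6 for Ina and 11.2 for Stmn2 and at most 4.52 for the other members, and a difference that missed the threshold is not shown to be absent.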
